A study of Mus musculus with 6 samples.

Results

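The genes described here were listed for the degradative machinery of the lysosome and for autophagy. They were measured in enterospheres, the free-floating spheres that grow from dissociated neonatal gut muscle with its myenteric plexus. The members were a list of 50 gene symbols, named by function with earlier results of these data known. The rule used measured values only to choose among several array entries of a gene. Each was looked up by its exact symbol in the annotation of the array, and a gene with several transcript clusters (sets of probes summarised to 1 value) was represented by its brightest cluster on average over the 6 arrays. All 50 were found, among 19938 genes with a cluster of their own. The members comprised 22 hydrolases (10 proteases, 7 glycosidases, 3 sulfatases and 2 lipid hydrolases), 4 lumenal activators and carriers, 8 membrane proteins, 4 subunits of the proton pump, 9 autophagy genes and 3 transcription factors of the MiT/TFE family.

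Both groups were C57BL/6 cultures of newborn (P0) mice, and there were 3 arrays in each. The proliferation group spent 11 days in a DMEM/F12 medium with N2 supplement, EGF and FGF. The differentiation group spent 9 days in the same way and then 2 days in DMEM/F12 with N2 and ascorbic acid-2-phosphate, for which neither growth factor is listed. The labels list the B27 supplement for the proliferation medium, whereas by the methods it was given a single time, before seeding, to the cultures of both groups. The loss of the growth factors and the gain of ascorbic acid-2-phosphate cannot be told apart. The labels give 3 mice for each sample and the methods 2 pups of a litter for each culture, so the animals were pooled. The methods describe 3 independent experiments, with picked spheres moved to either medium. Whether arrays of the 2 groups with the same number share an experiment is not stated. An enterosphere holds neural progenitors, neurons, glia and some cells of the gut wall, and in such bulk RNA fewer cells of a type and less RNA per cell cannot be told apart. The comparison asks how transcript levels differ after the move from proliferation to differentiation.

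Levels were the authors' RMA values on the log2 scale, on which a difference of 1 is a 2-fold change. Differences are given as differentiation minus proliferation, with the standard error from limma, a linear model with moderated variances. A call is an adjusted p under 0.05 over all clusters. The smallest p that an exact permutation of 3 against 3 arrays allows is 0.1, so no single gene was tested in that way. Correlations between arrays were 0.988 to 0.995 within a group and 0.983 to 0.989 between groups, and the median SD within a group was 0.14. The files hold no detection calls, so a dim gene is described by its place against the median cluster level of 6.15. All 7 proliferation markers of a fixed list (Mki67, Top2a, Ccna2, Bub1, Cdk1, Mcm3 and Rrm2) fell, with differences of -2.52 to -1.38.

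Lysosomes are acidic organelles in which hydrolases break down proteins, glycans and lipids delivered by endocytosis and autophagy. A vacuolar-type ATPase pumps in the protons, heavily glycosylated membrane proteins line the inner face, and the signalling kinase complex mTORC1 sits on the outer face when nutrients and growth factors are present. In autophagy, a double membrane decorated with LC3 and GABARAP proteins encloses cytoplasm and fuses with the lysosome. TFEB, TFE3 and MITF are held in the cytoplasm by mTORC1 and, once in the nucleus, bind E-box motifs in promoters of lysosomal and autophagy genes, the CLEAR network. Their activity is set largely by phosphorylation, which an array does not measure. Neurons and glia depend on this system, and inherited loss of its enzymes causes neurodegenerative storage diseases.

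Of the 50 genes, 6 rose on differentiation (Gpnmb, Arsi, Npc1, Cd63, Ctsh and Map1lc3a), 1 fell (Arsb) and 43 did not pass the test. Across all genes, 2.94% were called higher and 2.97% lower. The median difference of the members was 0.15, against 0.02 over all genes, and 38 of the 50 differences (76.0%) were above 0, against 56.3% of all genes. In 20 members every differentiation array lay above every proliferation array, as in 14.6% of all genes, and in 8 members every one lay below, as in 12.9% of all genes. At an unadjusted p under 0.05 there were 14 members higher and 5 lower, against 9.49% and 9.64% of all genes. Differences of at least 2-fold were found in 481 of the 19938 genes and in 2 members, Gpnmb and Arsi. Without this pair, the median of the other 48 was 0.14. For all 43 members that did not pass, the 95% interval of the difference lay within 2-fold in either direction, and for all of these but Mitf and Ctsz within 1.5-fold. Counting called genes too, the interval lay within 2-fold in 48 of the 50 members and in 18825 of the 19938 genes. It lay within 1.5-fold in 41 members and in 16221 of all genes. No member other than Gpnmb and Arsi kept its call when each of the 6 arrays was left out in turn. The counts changed to 2 higher and 0 lower without proliferation replicate 3 or without differentiation replicate 1, to 3 higher and 1 lower without differentiation replicate 2, and to 0 lower also without proliferation replicate 1, proliferation replicate 2 or differentiation replicate 3.

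**Figure D1:**
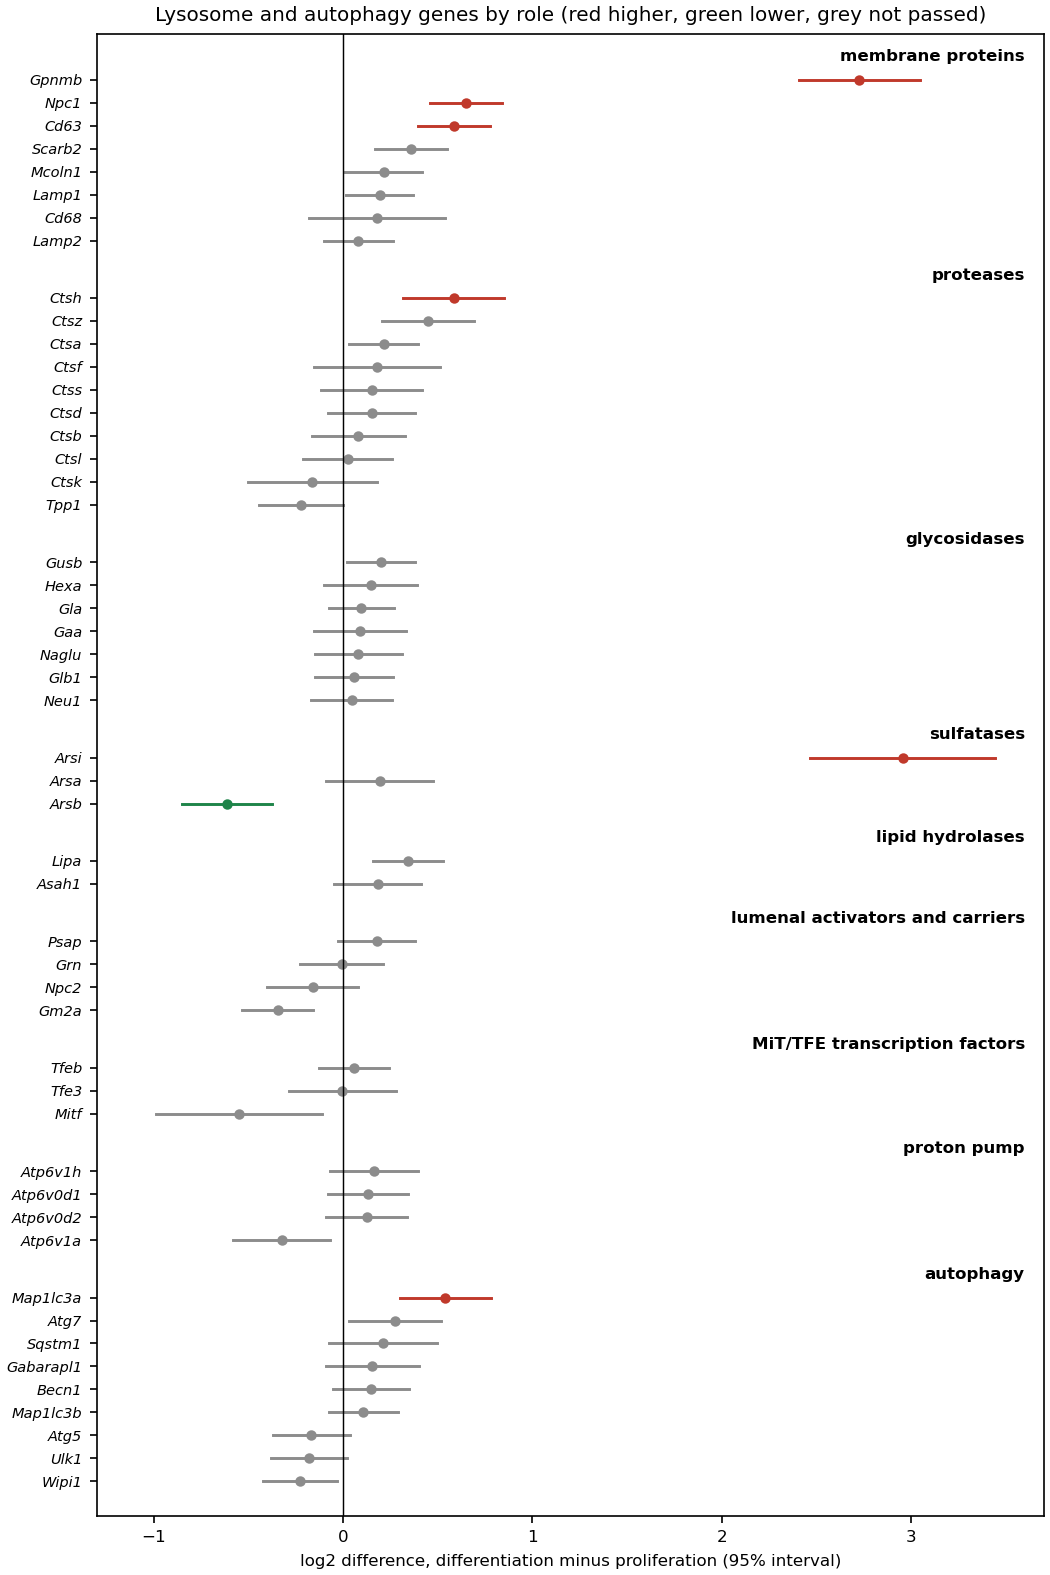
Difference of each of the 50 lysosome and autophagy genes between differentiation and proliferation on the log2 scale, grouped by role, with 95% intervals from limma. Gpnmb at 2.73 and Arsi at 2.95 stand far to the right, and every other gene lies between -0.61 and 0.65.

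Gpnmb had the smallest p of the 50 genes. It encodes a glycoprotein of melanosomes and lysosomes, known from pigment cells, osteoclasts and macrophages that have taken up debris or lipid. Its level (cluster 10538187) was 7.53, 7.24 and 7.68 in the 3 proliferation arrays and 10.27, 10.07 and 10.30 in the 3 differentiation arrays. The lowest differentiation array was thus more than 2 log2 units above the highest proliferation array. Gpnmb rose 6.62-fold, a difference of 2.73 (SE 0.13, 95% interval 2.41 to 3.05, limma adjusted p = 0.00119).

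Most markers of the cell types best known for Gpnmb were dim in both groups. None of 20 macrophage markers passed the test, and 18 of them lay below the median cluster level. The level of a list was the log2 of the mean of its unlogged values on an array, so bright genes weighed most. For the macrophage markers it ranged from 5.20 to 5.49 in proliferation and from 5.18 to 5.35 in differentiation. The defining receptors Csf1r (4.59 to 4.89 in proliferation, 4.71 to 5.06 in differentiation) and Adgre1 (4.39 to 4.51, then 4.51 to 4.62) were among the dim ones. Trem2 (6.16 to 6.49, then 6.35 to 6.64) and Lyz2, lysozyme (6.53 to 7.41, then 6.21 to 6.35), lay above the median cluster level. Lyz2 had the largest difference of the macrophage markers, at -0.71 (limma adjusted p = 0.149). Without proliferation replicate 2, 1 marker of the list was called lower. None of 7 osteoclast markers passed, with a list level of 6.31 to 6.65 in proliferation and 6.36 to 6.37 in differentiation and 6 of the 7 below the median cluster level. The exception was Nfatc1, a transcription factor of many cell types, at 8.55 and then 8.31 (group means). None of 7 melanocyte markers passed either, with a list level of 5.05 to 5.11 and then 5.05 to 5.38, and all 7 lay below the median cluster level, with Tyr, the pigment enzyme tyrosinase, between 3.81 and 3.97 on all 6 arrays.

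Arsi, a member of the arylsulfatase family whose natural substrate is less well known than those of its relatives, had the largest difference of the 50. It is a member because the list names it, and these data do not show where its protein acts. Its level (cluster 10456018) was 6.88, 6.90 and 7.61 in proliferation and 10.04, 10.00 and 10.23 in differentiation. Proliferation replicate 3 stood above its group, and yet well below every differentiation array. Arsi rose 7.75-fold, by 2.95 (SE 0.20, 95% interval 2.47 to 3.44, limma adjusted p = 0.00245). Gpnmb and Arsi were the members that passed under each left-out array, with adjusted p of 0.00312 to 0.014 for Gpnmb and 0.00212 to 0.0253 for Arsi.

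Neither of the other sulfatases was called higher. Arsb removes sulfate groups from dermatan and chondroitin sulfate, and its loss causes a mucopolysaccharidosis in humans. It was at 10.33, 10.41 and 10.23 in proliferation and 9.58, 9.84 and 9.70 in differentiation (cluster 10406663). All differentiation arrays lay below all proliferation arrays. Arsb fell by 0.61 on the log2 scale (SE 0.10, a 1.53-fold decrease, limma adjusted p = 0.0219), the only member to fall. A dimmer cluster of Arsb gave -0.51 with an adjusted p of 0.0562, and the call of the main cluster was lost in 5 of 6 fits that left out 1 array, with adjusted p of 0.0576 to 0.109, and kept without differentiation replicate 2 (adjusted p = 0.0422). Arsa, which desulfates the myelin lipid sulfatide, had a difference of 0.19 and its groups overlapped (adjusted p = 0.514).

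**Figure D2:**
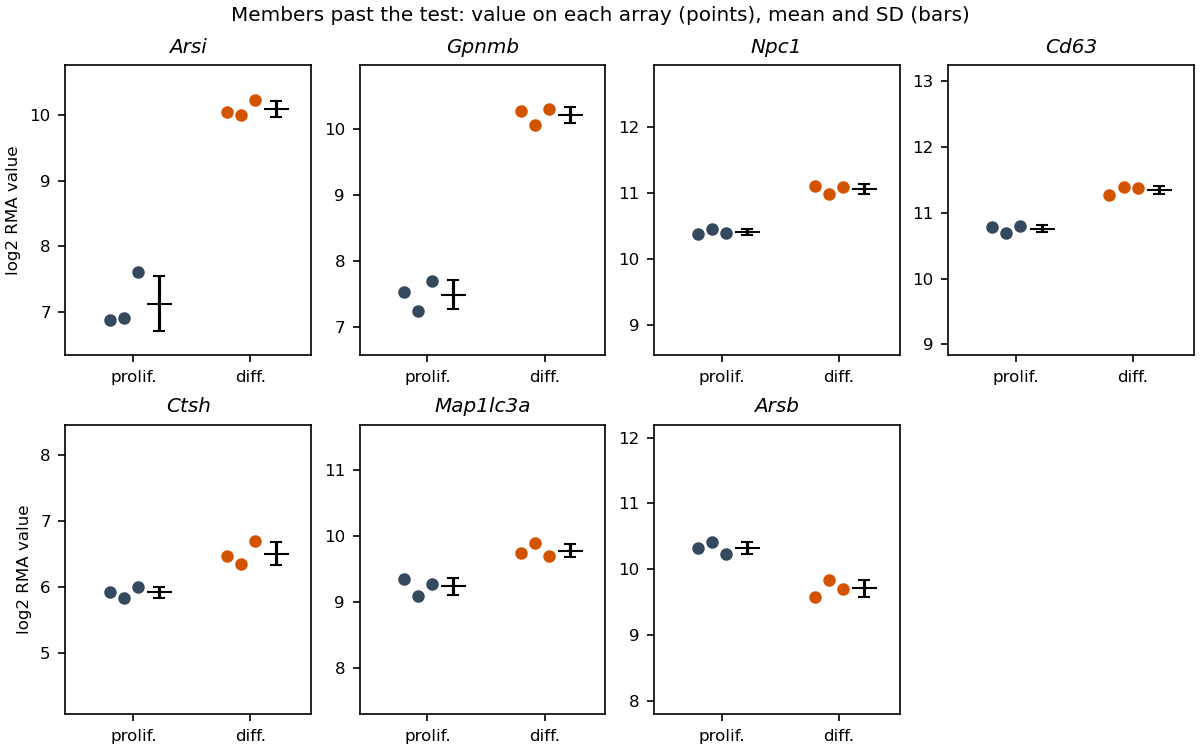
Log2 RMA value of the 7 called members on each of the 3 proliferation (blue) and 3 differentiation (orange) arrays, with a bar for the mean and SD of each group beside the points. The groups do not overlap in any of the 7 genes, which were picked by the test on these same values, so the gap is no separate support. Arsi and Gpnmb differ by 2.95 and 2.73, and the other 5 genes by less than 1 log2 unit, with Arsb lower in differentiation.

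Among the 8 lysosomal membrane proteins, all had a difference above 0, with a median of 0.29, and 3 rose (Gpnmb, Npc1 and Cd63). In 7 of the 8 every differentiation array lay above every proliferation array. Of all genes, 56.3% had a difference above 0, 2.94% were called higher and 14.6% had every differentiation array above. Npc1, the cholesterol exporter of the lysosome that is mutated in Niemann-Pick disease type C, was at 10.37, 10.46 and 10.39 in proliferation and 11.10, 10.98 and 11.10 in differentiation. The gap between the groups exceeded the spread within either. Npc1 rose 1.57-fold, by 0.65 (SE 0.08, limma adjusted p = 0.00884). Cd63, a tetraspanin of late endosomes, lysosomes and exosomes, was at 10.78, 10.70 and 10.80 and then at 11.28, 11.39 and 11.38. It rose 1.50-fold, by 0.59 (SE 0.08, adjusted p = 0.0122). Without proliferation replicate 3 or differentiation replicate 1 neither gene passed (adjusted p of 0.0556 and 0.0658 for Npc1, and of 0.0611 and 0.0634 for Cd63), and Cd63 also did not pass without differentiation replicate 2 (0.0513).

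The remaining membrane proteins did not pass the test. Scarb2, a sorting receptor that resides in the lysosomal membrane, came nearest, with 11.42, 11.39 and 11.49 in proliferation and 11.83, 11.83 and 11.72 in differentiation (difference 0.36, limma adjusted p = 0.0628). Lamp1 and Lamp2, the main glycoproteins of the lysosomal membrane, had differences of 0.19 (adjusted p = 0.264) and 0.08 (adjusted p = 0.696). Mcoln1, the calcium channel that signals from the lysosome, had a difference of 0.21 (adjusted p = 0.286). Groups were separate in each of these 4 genes. Cd68, the membrane glycoprotein best known from macrophages, was dim at 6.17, 5.88 and 6.03 in proliferation and 6.07, 6.51 and 6.04 in differentiation, and its groups overlapped.

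Of the 10 proteases, 1 rose and 0 fell, against 2.94% and 2.97% of all genes. The median difference was 0.15, against 0.02 over all genes. Ctsh, cathepsin H, an aminopeptidase of the cathepsin family, was at 5.92, 5.83 and 6.00 in proliferation and 6.47, 6.35 and 6.69 in differentiation, so that it crossed the median cluster level. It rose 1.50-fold, by 0.58 (SE 0.11, limma adjusted p = 0.038). Its call was lost without any 1 of the 6 arrays (adjusted p of 0.055 to 0.146). Ctsz, a carboxypeptidase, was at 10.45, 10.40 and 10.56 and then at 10.81, 10.86 and 11.09, with a difference of 0.45 that did not pass (adjusted p = 0.0698). Ctsa, the protective protein of the sialidase and galactosidase complex, also had separate groups, with a difference of 0.21 (adjusted p = 0.237).

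The other proteases had differences between -0.22 and 0.18. Ctsb, Ctsd and Ctsl, the widely expressed endoproteases, had differences of 0.08, 0.15 and 0.03, and their groups overlapped. The differences were 0.18 for Ctsf, 0.15 for Ctss and -0.16 for Ctsk, with overlapping groups in each. Ctss, the cathepsin of antigen-presenting cells, lay below the median cluster level on all arrays, between 4.65 and 5.02. Tpp1, the tripeptidyl peptidase lost in a neuronal ceroid lipofuscinosis, was at 10.80, 10.56 and 10.66 in proliferation and at 10.45, 10.52 and 10.39 in differentiation. All its differentiation arrays lay below the proliferation arrays, and the difference of -0.22 did not pass (limma adjusted p = 0.322).

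None of the 7 glycosidases passed the test, where 2.94% of all genes were called higher and 2.97% lower. Their differences lay between 0.05 and 0.20. Gusb, the beta-glucuronidase that trims glycosaminoglycans, had the largest, with 8.70, 8.75 and 8.73 in proliferation and 8.88, 8.94 and 8.96 in differentiation (difference 0.20, limma adjusted p = 0.252). Gusb and Gla, the alpha-galactosidase lost in Fabry disease (difference 0.10), had every differentiation array higher, as in 14.6% of all genes. Hexa, Glb1, Gaa, Naglu and Neu1, which cleave gangliosides, galactosides, glycogen, heparan sulfate and sialic acids, had overlapping groups, with differences of 0.15, 0.06, 0.09, 0.08 and 0.05. The differences of Naglu and Neu1 turned below 0, to -0.0038 and -0.0195, without differentiation replicate 3.

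Both lipid hydrolases had positive differences and neither passed. Lipa, the acid lipase that frees cholesterol from its esters, was at 10.42, 10.37 and 10.40 in proliferation and 10.67, 10.81 and 10.74 in differentiation (difference 0.34, limma adjusted p = 0.0667). Its groups did not overlap. Asah1, the acid ceramidase, had a difference of 0.18. The 4 lumenal activators and carriers had a median of -0.08. Gm2a, the activator that lifts GM2 ganglioside from membranes for its breakdown, was at 11.01, 11.05 and 10.99 and then at 10.61, 10.65 and 10.75, with a difference of -0.35 that did not pass (adjusted p = 0.0702). Every differentiation array of Gm2a lay below every proliferation array. Psap, the precursor of the saposins, had a difference of 0.18 with separate groups, whereas Grn, progranulin, at -0.01 and Npc2, the lumenal partner of Npc1, at -0.16 overlapped. Npc1 and Npc2, which hand cholesterol from lumen to membrane, thus had differences of opposite sign, of which that of Npc1 alone passed.

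The transcription factors that act on this network did not pass. Tfeb was at 8.74, 8.69 and 8.82 in proliferation and 8.78, 8.80 and 8.85 in differentiation, a difference of 0.06 (95% interval -0.13 to 0.24, limma adjusted p = 0.803). Tfe3 was at 10.04, 9.70 and 9.78 and then at 9.78, 9.98 and 9.75, with an interval of -0.29 to 0.28. Both thus had overlapping groups. Mitf, the family member that specifies pigment cells, was at 8.29, 8.78 and 8.30 in proliferation and 7.82, 8.21 and 7.70 in differentiation. The highest differentiation array of Mitf lay just under the lowest proliferation array, and its difference of -0.55 had a wide interval, -0.99 to -0.11 (adjusted p = 0.202). A second, very dim cluster of Mitf gave -0.03 (adjusted p = 0.926).

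The E-box that these factors recognise was searched for in promoters from RefSeq on mouse build GRCm38.p6, each from 250 bases before to 50 bases after the transcription start. The letters searched were CACGTG and its extended form TCACGTGA, which contains the first. Each is its own reverse complement, so that both strands were covered. An entry was found for 41 of the 50 genes, with 48 promoters, and not for Arsi, Asah1, Atp6v0d2, Atp6v1h, Becn1, Ctsb, Ctsh, Map1lc3a and Npc1. CACGTG was present in 15 of the 48 promoters (31.2%), against 7.15% of the 32851 promoters in the whole table. TCACGTGA was present in 6 of 48 (12.5%), against 0.974% of all. The motif is known from promoters of lysosomal and autophagy genes, so a higher share in a list of such genes was foreseeable. The 6 genes with the extended form were Atp6v0d1, Atp6v1a, Ctsa, Ctsd, Gla and Mcoln1.

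The windows around the motif are shown for 5 of these genes, 5′ to 3′ on the strand of the gene and upstream of the start, with each match in capitals, since they show the sequence shared by a membrane channel, a pump subunit and 3 hydrolases.
Mcoln1 (chr8:3500429-3500488, plus strand): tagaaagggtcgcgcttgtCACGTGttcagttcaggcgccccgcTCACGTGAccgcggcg
Ctsa (chr2:164833713-164833772, plus strand): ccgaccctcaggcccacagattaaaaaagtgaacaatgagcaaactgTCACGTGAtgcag
Ctsd (chr7:142387893-142387952, minus strand): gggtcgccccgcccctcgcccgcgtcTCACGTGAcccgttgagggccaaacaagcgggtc
Gla (chrX:134601181-134601250, minus strand): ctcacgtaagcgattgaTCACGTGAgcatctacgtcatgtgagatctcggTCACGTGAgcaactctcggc
Atp6v1a (chr16:44139360-44139419, minus strand): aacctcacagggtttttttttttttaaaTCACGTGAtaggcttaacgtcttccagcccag
In the whole searched window, Mcoln1 and Ctsd each held a further CACGTG beside the extended form, that of Ctsd outside the stretch shown. Gla and Ctsa held the extended form at 2 positions, and the second match of Ctsa lies after the start and is not shown. None of these 5 genes was called.

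The 3 called members with a promoter in the table, Gpnmb, Cd63 and Arsb, held neither form in any part of the searched window. Their sequence directly upstream of the start is shown in lower case throughout because no match was found.
Gpnmb (chr6:49036268-49036517, plus strand): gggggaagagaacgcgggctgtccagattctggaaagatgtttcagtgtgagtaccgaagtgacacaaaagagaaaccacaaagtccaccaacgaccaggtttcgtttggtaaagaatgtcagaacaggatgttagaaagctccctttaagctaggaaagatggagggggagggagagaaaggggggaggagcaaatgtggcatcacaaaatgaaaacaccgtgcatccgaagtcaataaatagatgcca
Cd63 (chr10:128909245-128909344, plus strand): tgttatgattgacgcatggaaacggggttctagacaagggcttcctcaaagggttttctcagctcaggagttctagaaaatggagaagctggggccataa
Arsb (chr13:93771579-93771678, plus strand): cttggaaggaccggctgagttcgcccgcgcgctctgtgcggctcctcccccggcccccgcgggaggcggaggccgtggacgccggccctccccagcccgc
The 6 genes with the extended form had differences of -0.32 to 0.21 with a median of 0.14, and 0 were called. The 9 with CACGTG alone (Arsa, Atg5, Atg7, Ctsf, Ctsl, Gaa, Glb1, Lamp1 and Naglu) had a median of 0.09, and again 0 were called. The 26 with neither had a median of 0.09, with 2 called higher and 1 lower, and the 9 without an entry had a median of 0.18 and 4 called higher. Over all genes 2.94% were called higher and 2.97% lower, and 0 calls in classes of 6 and 9 genes cannot be told from these shares. A match is a description of the letters and does not show binding.

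**Figure D3:**
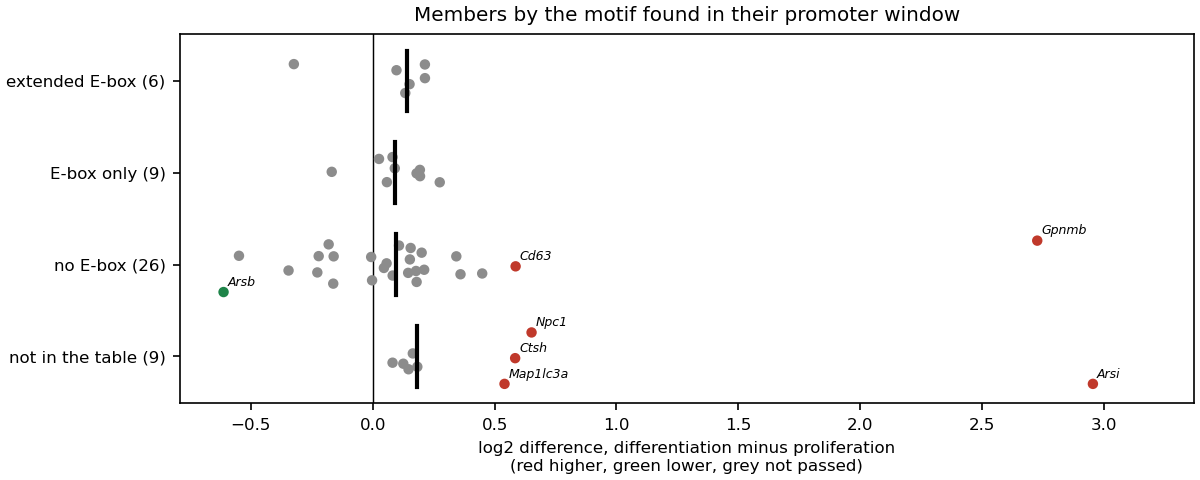
Log2 difference between differentiation and proliferation of the 50 genes by the motif found in their promoter window, where the extended E-box is TCACGTGA and the E-box is CACGTG, with red for called higher, green for called lower, grey for not passed and a bar at each median. The medians of the classes lie between 0.09 and 0.18. No gene with either motif was called, where 2.94% of all genes were called higher and 2.97% lower. The class not in the table, whose promoters could not be searched, holds 4 of the called genes.

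None of the 4 proton pump subunits passed, a set too small to compare with the 2.94% called higher and 2.97% lower over all genes. Atp6v1a, the catalytic subunit, was at 10.86, 10.51 and 10.74 in proliferation and at 10.32, 10.40 and 10.41 in differentiation, a difference of -0.32 (limma adjusted p = 0.195) with every differentiation array lower. Atp6v0d1, the widely expressed subunit d, had a difference of 0.13 with every differentiation array higher. Atp6v1h, a regulatory subunit, had a difference of 0.16 and overlapping groups. Atp6v0d2, the isoform of subunit d best known from osteoclasts and kidney, was very dim, between 3.42 and 3.74 on all arrays.

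Of the 9 autophagy genes, 1 rose and 0 fell, against 2.94% and 2.97% of all genes. Map1lc3a encodes an LC3 protein that is attached to lipid on the autophagosome membrane. It was at 9.35, 9.10 and 9.28 in proliferation and at 9.75, 9.90 and 9.71 in differentiation. Map1lc3a rose 1.46-fold, by 0.54 (SE 0.10, limma adjusted p = 0.035), and its groups were separate. The call held without proliferation replicate 1 (adjusted p = 0.0487) and was lost in the other 5 fits that left out an array (0.0693 to 0.141). The related Map1lc3b and Gabarapl1 had differences of 0.11 and 0.16 with separate groups, and neither passed.

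The other 6 autophagy genes differed in sign. Ulk1, the initiating kinase, Atg5, which takes part in LC3 lipidation, and Wipi1, a sensor of phosphoinositides on the forming membrane, had differences of -0.18, -0.17 and -0.23. In all 3 every differentiation array was lower, as in 12.9% of all genes. Atg7, the enzyme that activates LC3 for lipidation, had a difference of 0.27 with every differentiation array higher. Becn1, a subunit of the lipid kinase complex, at 0.15 and Sqstm1, the cargo receptor p62, at 0.21 had overlapping groups. The limma adjusted p of these 6 genes was 0.232 to 0.487.

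The other genes of the pathway came from 6 fixed lists, of which 165 genes had a cluster of their own. Of these, 12 were called higher, 3 lower and 150 did not pass, with a median of 0.03 and 57.6% of differences above 0. Over all genes the median was 0.02, 56.3% were above 0, and 2.94% were called higher and 2.97% lower. These counts fell to 0 and 0 without differentiation replicate 1, to 1 and 0 without proliferation replicate 3, to 2 and 0 without differentiation replicate 2, to 3 and 0 without differentiation replicate 3 and to 8 and 2 without proliferation replicate 1, and they were 5 and 4 without proliferation replicate 2. None of the 15 kept its call under every left-out array.

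Among 28 other hydrolases and lumenal proteins, 2 rose and 1 fell, with a median of 0.02. Manba, the lysosomal beta-mannosidase, rose by 0.67 (limma adjusted p = 0.0285), Epdr1, a lumenal lipid-binding protein, by 0.59 (adjusted p = 0.0126), and Sgsh, the heparan sulfamidase, fell by 0.59 (adjusted p = 0.032). Among 27 other membrane proteins, 4 rose and 1 fell, with a median of 0.09. Cd9, a tetraspanin like Cd63, rose by 0.58 (adjusted p = 0.0156), Mcoln2, a relative of Mcoln1, by 0.53 (adjusted p = 0.0292) and Laptm4b by 0.49 (adjusted p = 0.0228). Mcoln2 was dim, at 5.62 to 5.84 in proliferation and at 6.19 to 6.34 in differentiation, and crossed the median cluster level. Tpcn1, a cation channel of endosomes and lysosomes, fell by 0.76 (adjusted p = 0.0203).

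Of 20 other pump subunits, 2 rose (Atp6v1g1 by 0.54, limma adjusted p = 0.0285, and Atp6v0e by 0.43, adjusted p = 0.0409) and 0 fell, with a median of 0.08. Of 18 genes for sorting to the lysosome, 1 rose and 1 fell, with a median of 0.05. Igf2r, the large receptor that carries mannose 6-phosphate tagged hydrolases to the lysosome, was at 11.29, 10.72 and 10.86 in proliferation and at 10.12, 10.20 and 10.08 in differentiation. Igf2r fell by 0.82 (SE 0.15, adjusted p = 0.0334), while Gnptab, the enzyme that starts the tag, rose by 0.39 (adjusted p = 0.0435).

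Of 42 other autophagy genes, 1 rose and 0 fell, with a median of 0.04. Rubcn, known as a brake on autophagosome maturation that binds the lipid kinase complex, was at 10.12, 9.74 and 9.94 in proliferation and at 10.76, 10.74 and 10.76 in differentiation. Rubcn rose by 0.82 (SE 0.11, limma adjusted p = 0.0114), and its call was lost without proliferation replicate 3 or differentiation replicate 1, with an adjusted p of up to 0.0716. Of 30 regulators of mTORC1 and TFEB, 2 rose and 0 fell, with a median of -0.04. They were Lamtor4, a subunit of the Ragulator scaffold on the lysosome, which rose by 0.49 (adjusted p = 0.0302), and Akt1s1, an inhibitory subunit of mTORC1, which rose by 0.43 (adjusted p = 0.0254).

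**Figure D4:**
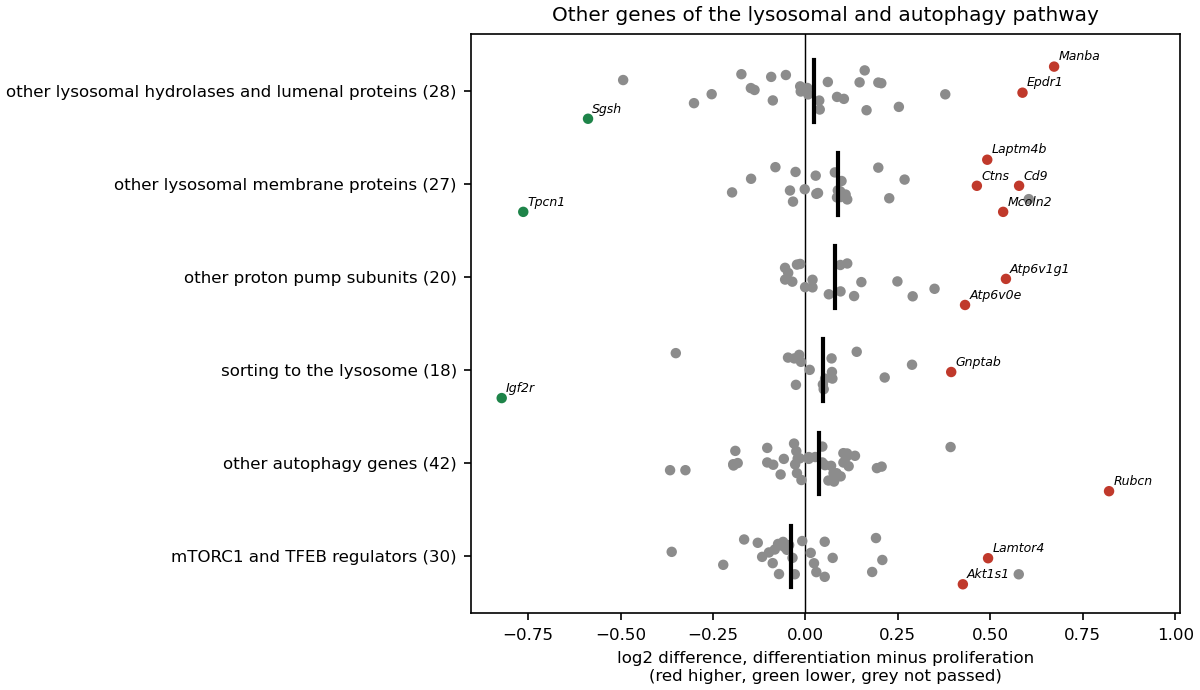
Log2 difference between differentiation and proliferation of the 165 other genes of the pathway in 6 fixed lists, each point a gene, with red for called higher, green for called lower, grey for not passed and a bar at each median. The medians lie between -0.04 and 0.09, and the called genes are named.

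Markers of the cell types an enterosphere can hold moved beside these genes. Of 8 smooth muscle markers, 4 rose and 1 fell, with Tagln at 1.44 and Actg2 at 1.22 as the largest, and the level of the list went from between 7.93 and 8.06 to between 8.18 and 8.31. Of 7 markers of enteric glia and Schwann cells, Gfap rose by 1.16 while Fabp7 fell by 1.07 and S100b by 0.74, and the level of the list was 10.79 to 11.19 in proliferation and 10.95 to 11.03 in differentiation. Of 8 neuron markers, 1 rose, Tubb3, by 0.98, with a list level of 10.27 to 10.71 and then 10.54 to 10.70. Of 4 markers of interstitial cells of Cajal, Ano1 fell by 1.43 on the log2 scale and the others did not pass, with Kit at -0.85 (adjusted p = 0.0501), Gja1 at -0.52 and Etv1 at -0.21. The level of the list was 10.70 to 11.05 in proliferation and 10.32 to 10.46 in differentiation, and 3 of its markers were called lower without proliferation replicate 2 and 0 without differentiation replicate 1. None of 7 fibroblast and none of 6 endothelial markers passed. All proliferation markers but Rrm2 kept the call under each left-out array. Rrm2 lost it without differentiation replicate 1 (limma adjusted p = 0.05115). Of the called markers other than those of proliferation, Tagln and Actg2 kept the call under each left-out array. The part of these markers in the differences of the lysosome and autophagy genes was not tested.

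**Figure D5:**
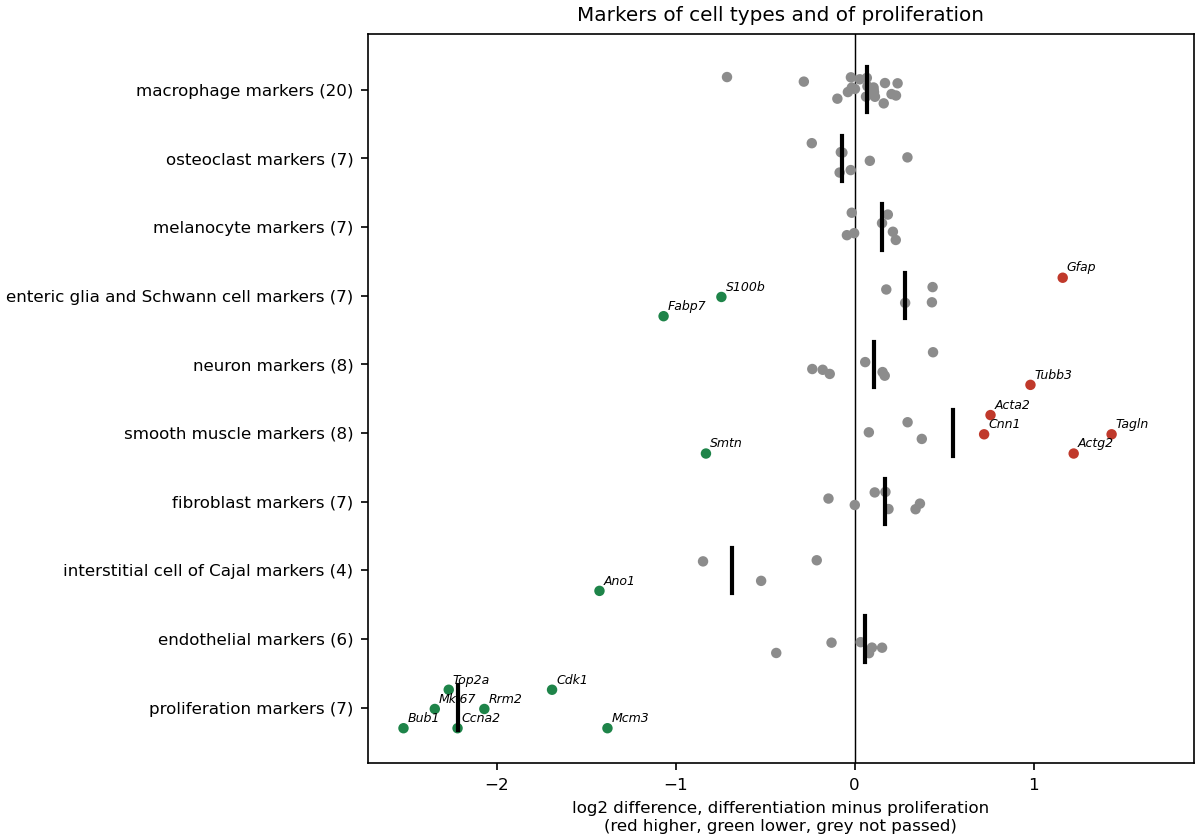
Log2 difference between differentiation and proliferation of each cell type and proliferation marker, each point a gene, with red for called higher, green for called lower, grey for not passed and a bar at each median. None of the macrophage, osteoclast, melanocyte, fibroblast or endothelial markers is called, and all 7 proliferation markers are called lower, with a median of -2.22.

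The arrays of 1 group did not vary alike across the members. Proliferation replicate 2 was the lowest of its group in 34 of the 50 members, against 42.2% of all genes, and its median deviation from the group mean over the members was -0.08. Differentiation replicate 1 was the lowest of its group in 27 members, against 33.3% of all genes. Without proliferation replicate 2, the median difference of the members was 0.09 in place of 0.15.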

How the data were processed

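Enterospheres were measured on GeneChip Mouse Gene 1.0 ST arrays, 1 per sample, with groups and replicate numbers taken from the labels. Per the study's methods, arrays were scanned with AGCC 3.0 and checked for quality in Expression Console 1.0, and the authors applied RMA normalization through Partek Software 6.6. The table they deposited holds log2 values. RMA equalises the distributions of the arrays, so a change shared by most genes would not be seen. The genome build behind the clusters is not given in the sources used here. The number of arrays limits the precision.

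Symbols came from the platform annotation. It gave 1 symbol for 21789 of the 35556 clusters, several for 1621 and none for 12146, and genes were named from the first alone. Some genes of the other lists were not analysed here. The groups were compared with limma 3.58.1 in R 4.3.3 (lmFit and eBayes, two-sided, Benjamini-Hochberg over all clusters, no filter), after a test on simulated data. Other steps used Python 3.11.15 with pandas 2.3.3, and matplotlib 3.10.9. Percentages of all genes refer to the 19938 genes. Promoters were read from a RefSeq table of build GRCm38.p6.

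The members and the lists were chosen with earlier results of these data known. Values per array are given for each called member and for the member with the largest difference in each role, for other members where their groups bear on the text, and for up to 4 called genes of each other list single values. Igf2r, Rubcn, Mcoln2 and the markers given by array range were chosen after their values were seen. Alternatives were a replicate block, limma-trend, other scalings, filters, array weights, averaging a gene's clusters, the methods' t-test, a minimum fold and leaving out each array.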

Additional observations from a re-analysis of the deposited data

How the results depend on the processing

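The main count was 6 members higher and 1 lower, with a median difference of 0.146. With the replicate number as a block it was 2 higher (Gpnmb and Arsi) and 0 lower, and of the 165 other pathway genes 1 was called higher (Rubcn) and 0 lower. Of the called markers, Tubb3, Cnn1 and Smtn lost their call with the replicate block. The labels do not say that a replicate number marks a shared experiment, so the numbers were not taken as pairs. Deviations of same-numbered arrays correlated at -0.003, 0.0898 and -0.0742, which does not settle whether the arrays were paired. Array weights gave 16 higher and 9 lower with a median of 0.0682, and they put 3.62 on proliferation replicate 3 and 7.45 on differentiation replicate 1, against 0.397 to 0.491 for the others. Limma-trend, clusters at or above the median level, clusters with 1 symbol and averaging of clusters each gave 9 higher and 2 lower. The methods' t-test gave 4 higher and 1 lower at its own threshold and 4 and 0 after Benjamini-Hochberg adjustment. Leaving out each array gave 2 to 5 higher, 0 to 1 lower and medians of 0.0911 to 0.167. Gpnmb and Arsi passed with each of the 6 arrays left out and in the 11 other alternatives.

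Signs turned in 6 members with differences near 0. Tfe3 was at 0.0042 after cyclic loess and ranged from -0.0746 to 0.0975 with arrays left out. Ctsl was at -0.0092 after centring on the median, at -0.0895 with array weights and from -0.0545 to 0.0678 with arrays left out. Tfeb was at -0.0159 with array weights. With arrays left out, Grn ranged from -0.0628 to 0.0445, Naglu from -0.0038 to 0.129 and Neu1 from -0.0195 to 0.0974. The causes were not tested. Levels of dim members such as Ctss and Atp6v0d2 may lie near background, for which the files give no measure.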
